A study of Schizosaccharomyces pombe with 28 samples.

Results

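In a series of repeat hybridisations of the fission yeast Schizosaccharomyces pombe, the arrays titled as hybridisations 1 to 6 and 19 (7 arrays) were set against hybridisations 7, 8 and 20 (3 arrays). These are 10 of the 28 arrays of the series. The sides are no groups of the study. They were chosen by the array values themselves, namely the correlations among the arrays and the ratios of genes such as ost4 and mrpl32. Every difference between them is therefore a description, with no test.

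All 28 arrays carry the same labels. In each, both dye channels held cDNA from wild-type strain LJY1014 (h- leu1-32) in early-log growth, cultured in the rich medium YES. This is a self-self hybridisation, which compares a culture of the strain with another culture of the same strain, and no treatment, mutant or time point enters. The labels describe the cells as taken from independent cultures, and do not say which cultures were paired on an array.

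In a self-self hybridisation the log2 ratio of a gene is 0 where both channels gave the same signal. A ratio away from 0 is a difference between the channels and not a level of expression, and unequal RNA in the cultures and unequal behaviour of the dyes cannot be told apart on a single array. Growing fission yeast spends much of its transcription on ribosomes and glycolysis, and chaperones such as the disaggregase Hsp104 are induced by heat and other stress. Which dye was the numerator, whether dyes were swapped and how values were normalized is not given in the sources used here. A sign here is that of the deposited ratio and stands for no dye, and comparing signs between arrays assumes that all 10 run the same way. No pair among the 10 arrays correlated below 0, but the sides were drawn from these correlations, so this is no separate check of that assumption.

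Ratios were set relative to the median of their array and averaged over the 2 probes for each gene. The difference of a gene is the mean of arrays 1 to 6 and 19 minus the mean of arrays 7, 8 and 20, on the log2 scale. A gene is called split where the 7 and the 3 arrays did not overlap in either of its 2 probes, both probes pointed the same way, and the difference was at least 0.3 in size. The table holds 9858 probes for 4929 gene identifiers, with 0 missing values.

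Of the 4929 genes, 81 were split with the 7 arrays higher, which is 1.64% of all genes. The 7 arrays were lower for 7 genes, or 0.142%. The highest differences belonged to genes of varied roles: mrpl32 of the mitochondrial ribosome, rit1 of initiator tRNA modification, tif1 encoding the translation initiation factor eIF4A, dpm3 of dolichol-phosphate mannose synthesis, elo2 of fatty acid elongation and cox8 of cytochrome c oxidase. The lowest was that of hsp104. Among the 81 genes the difference had a median of 0.54 and ran from 0.31 to 1.04. The split is lopsided under median centring, with 92% of split genes higher in the 7 arrays, but that share followed the scaling. It was 60.5% with no centring or with centring on the array mean, 85.6% with every array scaled to the same median absolute deviation, and 39.2% after quantile normalization over the 10 arrays.

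**Figure D1:**
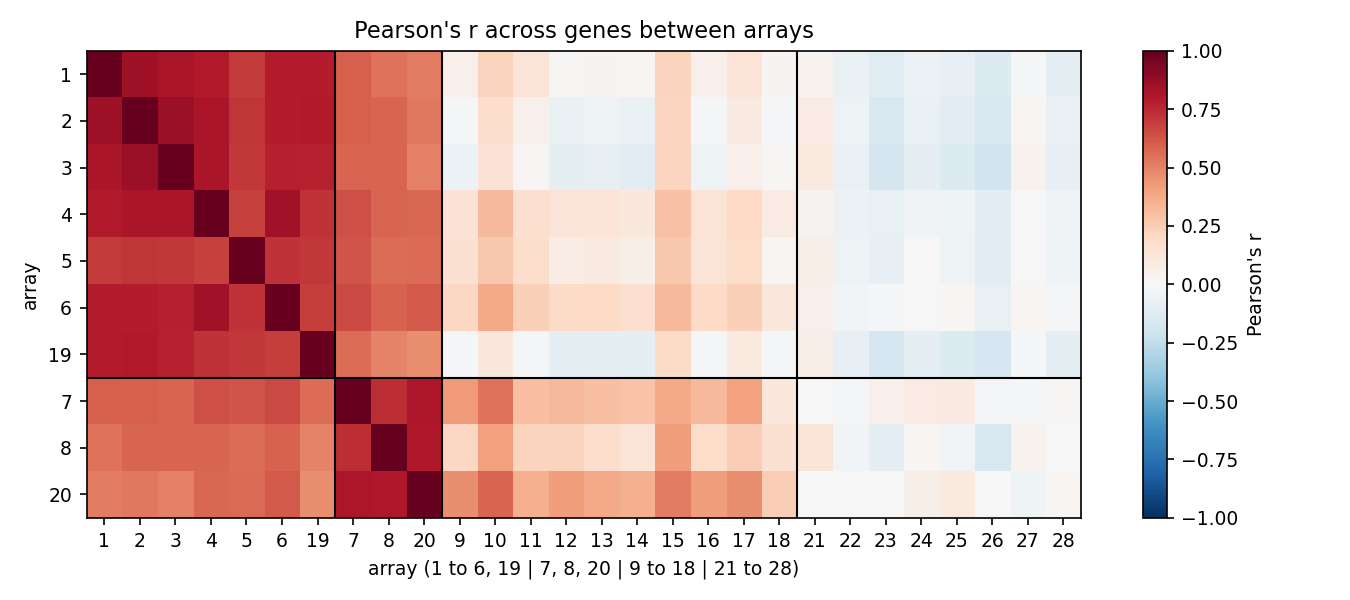
Pearson's r across 4929 genes between each of the 10 arrays (rows) and all 28 arrays (columns), from -1 in blue to 1 in red, with black lines between arrays 1 to 6 and 19, arrays 7, 8 and 20, arrays 9 to 18 and arrays 21 to 28. Pairs within the 7 lay between 0.687 and 0.867, pairs within the 3 between 0.739 and 0.810, and pairs across the sides between 0.462 and 0.661.

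The map of array correlations shows the pattern by which the sides were drawn. Within the 7 arrays Pearson's r across genes had a median of 0.785 over the pairs, and within the 3 arrays a median of 0.797. Across the sides the median was 0.581, with 0.462 for arrays 19 and 20 as the lowest and 0.661 for arrays 6 and 7 as the highest. The ratios of the sides thus resembled each other: the 2 side means correlated at 0.687 across genes. Arrays 9 to 18 correlated with the 3 arrays at a median of 0.341 and with the 7 at a median of 0.099. Arrays 21 to 28 had medians near 0 with both, at 0.003 for the 3 and -0.06 for the 7. These are correlations across genes, which are not independent replicates, and arrays of a set share whatever their channels share.

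The 7 arrays also had wider and more lopsided ratio distributions, and these moved with the comparison. Their SD across genes ran from 0.307 to 0.403, against 0.190 to 0.214 in the 3 arrays, with no overlap. Their 95th percentile lay between 0.61 and 0.89, against 0.29 to 0.36, while the 5th percentile differed less, at -0.44 to -0.33 against -0.33 to -0.29. The skewness was 0.865 to 1.43 in the 7 arrays and -0.238 to 0.053 in the 3. The 2 probes of a gene correlated across genes at 0.361 to 0.512 in the 7 arrays and at 0.568 to 0.622 in the 3, so the wider arrays had the lower agreement between probes. The part of these distributions in the gene differences was not tested. Signal over background is unknown, since no spot intensities were used, and the number of arrays limits the precision.

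Over all genes the difference was centred close to 0, with a median of 0.02 and quartiles of -0.08 and 0.15. It reached 0.64 at the 99th percentile and -0.27 at the first percentile, so the long tail was on the side where the 7 arrays were higher. The 2 probes of a gene often differed: their differences correlated at 0.366 across genes, and 3105 genes, or 63.0%, had the same sign in both. Of 126 genes with a difference of 0.5 or more, 7 had probes of opposite sign, and in 64 one probe gave more than 2 times the difference of the other. Where only the direction of both probes was required, 420 genes (8.52%) were higher by at least 0.3 and 25 (0.507%) lower by at least 0.3. At 0.5 the same rule left 119 (2.41%) and 1 (0.0203%). Where the sides had only to be free of overlap in the mean of the probes, with the size threshold of 0.3, 319 genes (6.47%) were higher and 18 (0.365%) lower.

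**Figure D2:**
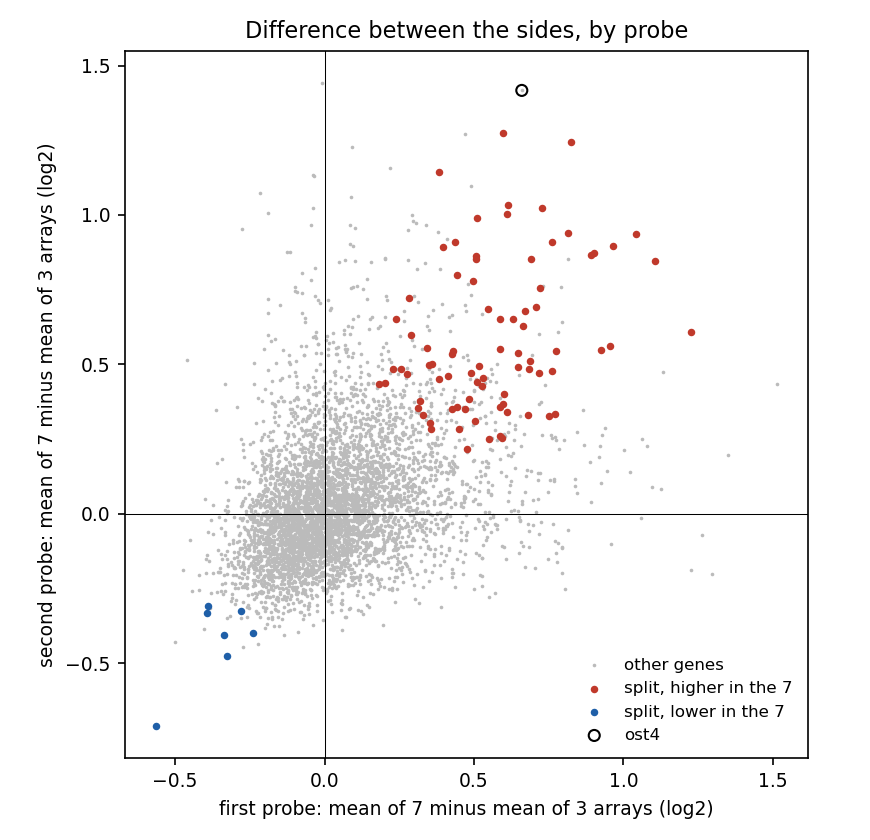
Difference between the sides for the first probe (horizontal, log2) and the second probe (vertical, log2) of each of 4929 genes, 1 point a gene. The 81 genes split with the 7 arrays higher (red) lie at the upper right, the 7 split the other way (blue) at the lower left, and ost4 (ring) lies at 0.66 and 1.42.

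The gene with the highest difference among the split genes was mrpl32 (SPBC1604.13c), which encodes a protein of the large subunit of the mitochondrial ribosome. In arrays 1, 2, 3, 4, 5, 6 and 19 its centred log2 ratio was 1.15, 1.33, 1.35, 1.39, 1.41, 0.97 and 0.99. In arrays 7, 8 and 20 it was 0.30, 0.22 and 0.06. All 7 arrays were far above all 3, with a mean of 1.23 ± 0.19 (SD, n = 7) against 0.19 ± 0.12 (SD, n = 3). The difference was 1.04, a 2.05-fold change of the ratio, and was 0.83 in the first probe and 1.24 in the second. It was the only split gene with a difference of at least 1, and it was among the genes that chose the sides.

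ost4 (SPAC7D4.15c), encoding the small Ost4 subunit of the oligosaccharyltransferase that transfers glycans to new proteins in the endoplasmic reticulum, also chose the sides. Its mean of both probes lay between 1.12 and 1.66 in the 7 arrays, with a median of 1.26, and was 0.35, 0.29 and 0.21 in arrays 7, 8 and 20. Those averages did not overlap and differed by 1.04. By probe the picture was uneven. The first probe ran from 0.17 to 1.87 in the 7 arrays and from 0.16 to 0.36 in the 3, so the sides overlapped there. The second ran from 1.44 to 2.21 and from 0.21 to 0.55, with a wide gap. ost4 was therefore not called split.

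rit1 (SPAC3F10.06c) encodes the enzyme that modifies the initiator tRNA with a phosphoribosyl group. Its ratio lay between 0.78 and 1.16 in the 7 arrays, with a median of 1.02, and was 0.01, -0.05 and 0.07 in arrays 7, 8 and 20. The 3 arrays were at 0 within a small spread, and the 7 were all clear of them. The difference was 0.99, with 1.04 and 0.94 in the 2 probes, so both probes gave almost the same value.

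tif1 (SPAC1006.07) encodes eIF4A, the RNA helicase of translation initiation. It lay between 0.75 and 1.23 in the 7 arrays, with a median of 1.14, and at 0.14, 0.14 and 0.15 in arrays 7, 8 and 20. The 3 arrays were nearly equal and the sides did not overlap. The difference was 0.93, with 0.96 and 0.90 by probe. tma23 (SPAC1952.02), a gene of ribosome biogenesis, lay between 0.90 and 1.18 with a median of 1.03, and at 0.29, 0.02 and 0.05 in the 3 arrays. Its difference was 0.92, again without overlap, and its first probe (1.23) gave about 2 times the value of its second (0.61).

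dpm3 (SPBC1677.02) encodes a subunit of the dolichol-phosphate mannose synthase, which makes the mannose donor used in the endoplasmic reticulum. It lay between 0.97 and 1.42 in the 7 arrays, with a median of 1.29, and at 0.27, 0.42 and 0.31 in arrays 7, 8 and 20. All 10 arrays were above 0 and the sides were well apart, by 0.89 in the mean. elo2 (SPAC1B2.03c), a fatty acid elongase gene, lay between 0.75 and 1.12 with a median of 0.92, and at 0.04, 0.02 and 0.06 in the 3 arrays. Here the 3 arrays stayed at 0, and the difference was 0.88 with 0.89 and 0.87 by probe.

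fic1 (SPBC83.18c), which encodes a C2-domain protein of the cytokinetic ring, lay between 0.71 and 1.03 in the 7 arrays, with a median of 0.84, and at 0.08, -0.01 and -0.05 in the 3. The sides were apart by 0.88. cox8 (SPAC24C9.16c), encoding a subunit of cytochrome c oxidase, lay between 0.76 and 1.23 with a median of 0.84, and at -0.03, 0.16 and 0.06 in the 3 arrays. Its difference was 0.84, and array 5 stood above the other arrays of its side at 1.23. rpl2502 (SPBC4F6.04), a large-subunit ribosomal protein gene, lay between 0.81 and 1.46 with a median of 1.21, and at 0.37, 0.45 and 0.40 in the 3 arrays. All 10 arrays were above 0 there, and the sides differed by 0.81.

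fsf1 (SPAC17G6.15c), encoding a mitochondrial carrier of the sideroflexin type, lay between 0.52 and 1.44 in the 7 arrays, with a median of 0.73, and at 0.17, 0.01 and 0.05 in the 3. The spread within the 7 was wide, yet its lowest array stayed above the 3, and the difference was 0.77. ade3 (SPAC6F12.10c) of purine synthesis lay between 0.55 and 0.98 with a median of 0.84, and at 0.05, -0.03 and 0.09 in the 3 arrays. Its difference of 0.76 came from unequal probes, 0.38 and 1.14, and with no centring or mean centring it was no longer split. mms2 (SPCC338.05c), encoding a variant of the ubiquitin-conjugating enzymes, lay between 0.70 and 1.29 with a median of 0.95, and at 0.43, 0.19 and 0.11 in the 3 arrays. Its difference was 0.76.

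An identifier with no single gene name, split at 0.82, is left unnamed. The 15 named genes of highest difference were completed by SPCC320.03 (0.97), SPAC630.12 (0.94) and SPAC1039.06 (0.88), to which no role is given here. SPAC630.12 had the widest range in the 7 arrays of these, from 0.46 in array 5 to 1.56 in array 2. All 15 remained split when any 1 array was left out. After scaling every array to the same median absolute deviation 10 of the 15 remained split, and after quantile normalization 7 did. In both scalings mrpl32, SPAC630.12, tma23, rpl2502 and mms2 were lost. Quantile normalization also removed SPCC320.03, dpm3 and fic1, while their differences kept their sign: over the 15 genes these were 0.25 to 0.81.

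**Figure D3:**
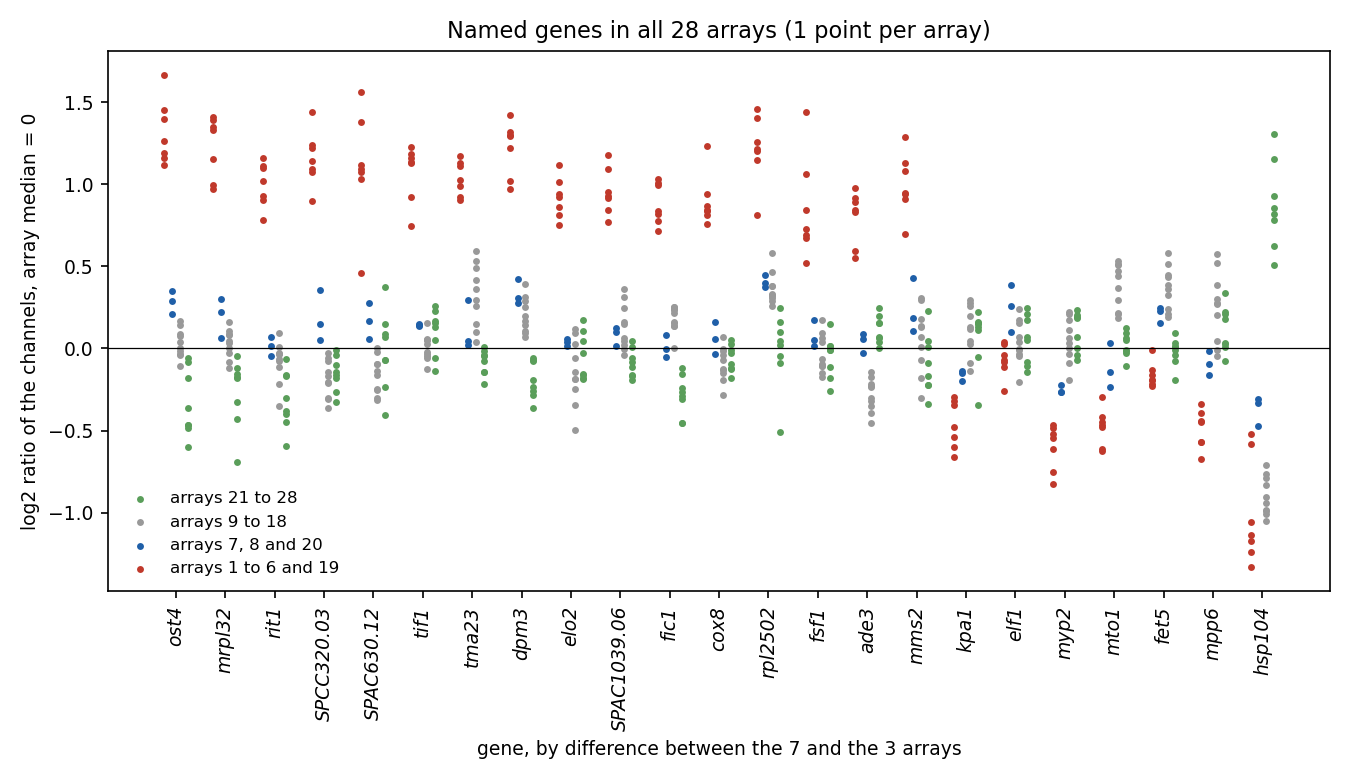
Centred log2 ratio (vertical) in each of the 28 arrays, 1 point an array, for ost4, the 15 split genes of highest difference among those with a single gene name, and the 7 split genes lower in the 7 arrays (horizontal, in order of difference). In the 15 genes all arrays 1 to 6 and 19 (red) lie above all other arrays, while hsp104 is negative in the 10 arrays compared and in arrays 9 to 18 (grey) and positive in arrays 21 to 28 (green).

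The lowest difference was that of hsp104 (SPBC16D10.08c), which encodes the disaggregase that pulls proteins out of aggregates after heat shock. In arrays 1, 2, 3, 4, 5, 6 and 19 its ratio was -1.17, -1.24, -1.06, -1.14, -0.58, -0.52 and -1.33, and in arrays 7, 8 and 20 it was -0.31, -0.33 and -0.47. All 10 arrays were below 0, and arrays 5 and 6 lay close to the 3. The means were -1.01 ± 0.32 (SD, n = 7) and -0.37 ± 0.09 (SD, n = 3), a difference of -0.64. hsp104 was no longer split after scaling to the same median absolute deviation (-0.43) or after quantile normalization (-0.57). In arrays 9 to 18 it ran from -1.05 to -0.71, within the range of the 7, and in arrays 21 to 28 from 0.51 to 1.31.

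The other 6 genes lower in the 7 arrays differed by less. mpp6 (SPACUNK4.11c), encoding a cofactor of the nuclear exosome that degrades RNA, lay between -0.68 and -0.34 in the 7 arrays, with a median of -0.45, and at -0.01, -0.16 and -0.10 in the 3. The sides were apart by -0.40, with the 3 arrays close to 0. mto1 (SPCC417.07c) of microtubule nucleation lay between -0.63 and -0.30 with a median of -0.47, and at -0.23, -0.14 and 0.03 in the 3, a difference of -0.36. myp2 (SPAC4A8.05c), a type II myosin gene of the cytokinetic ring, lay between -0.83 and -0.47 with a median of -0.55, and at -0.27, -0.27 and -0.22 in the 3, a difference of -0.35. For both genes the 7 arrays were the more negative ones.

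fet5 (SPAC4D7.12c), to which no role is given here, was slightly negative in the 7 arrays and positive in the 3. It lay between -0.23 and -0.01 with a median of -0.19, and at 0.15, 0.23 and 0.25, a difference of -0.37. elf1 (SPAC3C7.08c), an ABC-family gene linked to mRNA export, had ratios around 0 in the 7 arrays, between -0.26 and 0.04, and of 0.26, 0.39 and 0.10 in arrays 7, 8 and 20. Its difference was -0.32. kpa1 (SPCC553.07c), encoding DNA polymerase kappa, differed by -0.30, with -0.66 to -0.30 in the 7 arrays and -0.14, -0.20 and -0.15 in the 3. kpa1 was the gene most often lost when an array was left out, without array 2, 3, 5, 19, 7 or 20. elf1 was lost without array 5 or 8 and mto1 without array 20. Scaling to equal median absolute deviations removed mto1, myp2 and kpa1 as well, quantile normalization removed myp2 and kpa1, and differences of medians removed myp2.

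The genes nearest the threshold were alike on its 2 sides. Just inside lay rpl1802 at 0.309 and adn2 at 0.320, and just outside arg11 at 0.296 and tcd1 at 0.298. On the lower side kpa1 at -0.302 and elf1 at -0.319 were just inside, and eis1 at -0.295 and btb1 at -0.297 just outside. With no size threshold 90 genes (1.83%) were split with the 7 arrays higher and 49 (0.994%) with them lower. At a threshold of 0.5 the counts were 44 (0.893%) and 1 (0.0203%), the latter being hsp104.

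Most genes higher in the 7 arrays were away from 0 in those arrays and near 0 in the 3. Over the 81 genes the mean of the 7 arrays had a median of 0.65 and was above 0 in all 81. The mean of the 3 arrays had a median of 0.06, was above 0 in 60 genes, and lay within 0.3 of 0 in 76. In 77 genes the mean of the 7 arrays was farther from 0 than that of the 3. The spread among the 7 arrays was wider too, with a median SD of 0.168 over the 81 genes against 0.062 among the 3. Over all genes those medians were 0.112 and 0.067.

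The arrays that were not used to form the sides were read beside them. Arrays 9 to 18 had a median of -0.06 over the 81 genes, with 72 of their means within 0.3 of 0, and arrays 21 to 28 had a median of 0.03, with 76 within 0.3. By array, the median over the 81 genes was 0.53 to 0.69 in the 7 arrays, 0.05 to 0.09 in the 3, -0.13 to 0.01 in arrays 9 to 18 and -0.06 to 0.08 in arrays 21 to 28. For 57 of the 81 genes (70.4%) all 7 arrays lay above all 21 other arrays of the series. The 21 include the 3 arrays that the choice of the 81 genes already placed below. Of the 560 genes whose 2-probe mean had the 7 arrays above the 3, at any size, 232 (41.4%) had them above all 21. Arrays 7, 8 and 20 lay apart from the other 25 for 0 of the 81. Those 232 genes are 4.71% of all genes. All 7 arrays were below all 21 others in 66 genes, or 1.34%. The 3 arrays were above all 25 others in 11 genes (0.223%) and below in 6 (0.122%).

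The 7 genes on the lower side showed the same arrangement less clearly. Their median was -0.48 in the mean of the 7 arrays, -0.11 in that of the 3, 0.11 in arrays 9 to 18 and 0.07 in arrays 21 to 28. In 3 of the 7 genes all 7 arrays lay below all 21 others. hsp104 was not among these, since arrays 9 to 18 shared its negative ratios.

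**Figure D4:**
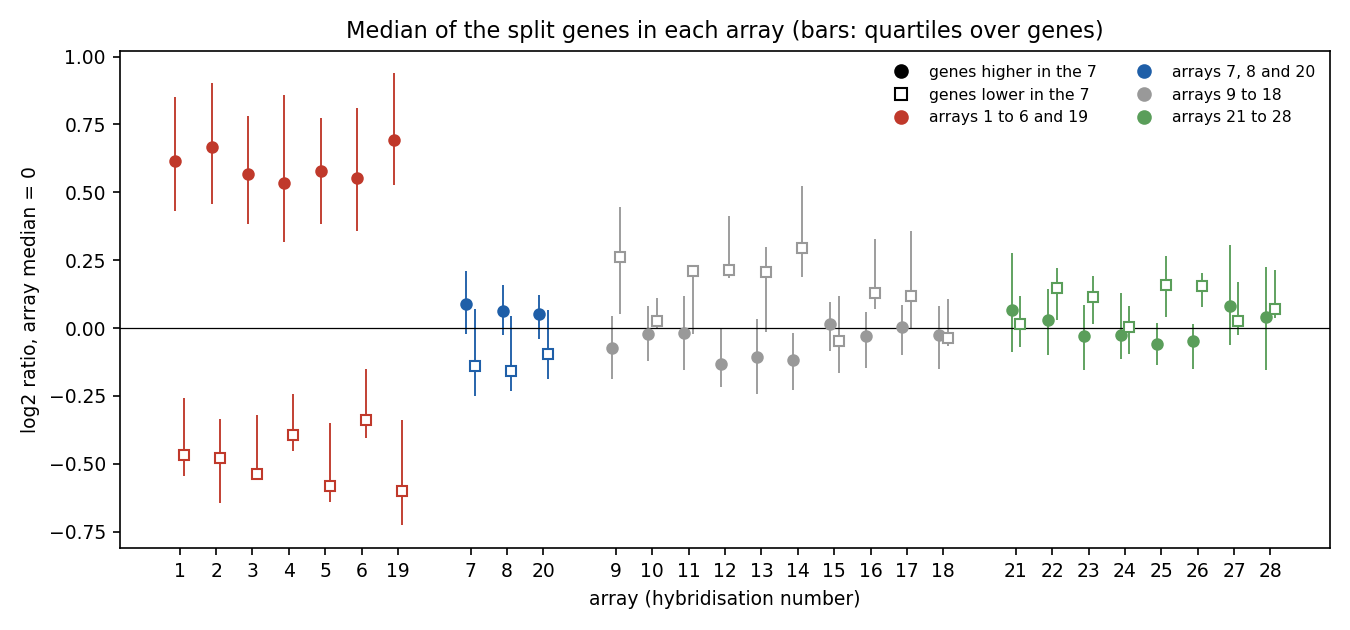
Median centred log2 ratio (vertical) over the 81 split genes higher in the 7 arrays (filled circles) and the 7 split genes lower in them (open squares) in each array (horizontal), with bars for the quartiles over genes. The circles are at 0.53 to 0.69 in arrays 1 to 6 and 19 and between -0.13 and 0.09 in all other arrays.

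Genes of cytosolic ribosomal proteins were the most numerous of the listed groups among the split genes. Of 126 listed by symbol, 12 (9.52%) were split with the 7 arrays higher and 0 were split lower, against 1.64% of all genes. The 12 made up 14.8% of the 81. They were 8 of 82 genes in the large-subunit list and 4 of 44 in the small-subunit list. The large-subunit list also took in rpp1 and rpp40, whose names are those of RNase P subunits and which were not split. The median difference was 0.14 over the large-subunit list and 0.19 over the small-subunit list, beside 0.02 over all genes, but after quantile normalization it turned to -0.03 and -0.04. With every array scaled to the same median absolute deviation it was 0.04 and 0.10. Above the median of all genes lay 65 of 82 and 37 of 44 members in the main setting, and 33 of 82 and 20 of 44 after quantile normalization.

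Among the large-subunit genes, rpl1602 lay between 0.52 and 0.96 in the 7 arrays, with a median of 0.76, and at 0.21, 0.03 and -0.17 in arrays 7, 8 and 20. The sides did not overlap and differed by 0.74. Its paralogue rpl1601 differed by 0.57, with 0.31 to 0.77 in the 7 arrays and -0.07, 0.01 and -0.07 in the 3. rpl35A02 and rpl35A01 differed by 0.59 and 0.43. In the small subunit rps402 lay between 0.51 and 0.85, with a median of 0.63, against 0.18, 0.06 and 0.01, a difference of 0.57. rps1902 (0.49), rps2201 (0.48) and its paralogue rps2202 (0.42) completed that list. Other paralogues of split genes were not split, so paralogues did not always move together. Among these rpl1603 differed by 0.20, rpl2501 by -0.13, rps401 by -0.01 and rps403 by 0.11. Paralogous ribosomal protein genes have near-identical sequences, so how their probes divide the signal is uncertain.

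Genes of protein translocation into the endoplasmic reticulum and of N-glycosylation, listed together, gave 1 split gene, dpm3, of 40 members. This is 2.50%, beside 1.64% of all genes, and the list's median was 0.07. Besides ost4, its members ost2 (0.83), another oligosaccharyltransferase subunit, and sbh1 (0.66), of the translocation channel, had high differences. ost2 lay between 0.44 and 1.35 in the 7 arrays, with a median of 0.88, and at 0.21, 0.13 and 0.02 in the 3. Its averages did not overlap, but its first probe did, at 0.25 to 1.41 against 0.07 to 0.45. By the rule on the direction of both probes 9 of the 40 (22.5%) were higher by at least 0.3 and 0 lower, beside 8.52% and 0.507% of all genes. These 9 include ost4, which chose the sides. Of the 40 members 22 lay above the median of all genes. The list's median was above that of all genes by 0.05 in the main setting. It was above by 0.02 with equal median absolute deviations and by 0.03 after quantile normalization.

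Ergosterol synthesis, which makes the main sterol of the yeast membrane, had 3 split genes of 23 (13.0%, beside 1.64% of all genes). The list's median was 0.03, close to that of all genes. erg4, a sterol reductase gene, lay between 0.20 and 1.04 in the 7 arrays, with a median of 0.68, and at 0.07, 0.04 and 0.02 in the 3. The sides were apart by 0.65, although the lowest of the 7 came within 0.2 of the 3. erg1, encoding squalene monooxygenase, differed by 0.62, with 0.30 to 0.80 against 0.11, -0.08 and -0.11. erg2 differed by 0.37, with 0.14 to 0.41 against -0.03, -0.08 and -0.05. The other 20 members were not split.

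Genes of the respiratory chain, ATP synthase and their assembly had 2 split members of 47, cox8 and cox6. These were 4.26% of the list, beside 1.64% of all genes, and the list's median was 0.08. cox6, another cytochrome c oxidase subunit gene, lay between 0.40 and 0.88 in the 7 arrays, with a median of 0.60, and at -0.06, 0.07 and 0.05 in the 3. The gap was wide and the difference 0.64. cox6 and elo2 are neighbours on chromosome I and were the only neighbouring pair of genes that were both split higher. The ATP synthase genes atp17 (0.57) and atp14 (0.52) were not split, and the 7 and 3 arrays overlapped in the mean of atp17. By the direction of both probes 10 of the 47 (21.3%) were higher by at least 0.3, beside 8.52% of all genes. Over the 34 lists this share ran from 0%, as for actin and tubulin genes, to 30.8% for the tricarboxylic acid cycle. It was 27.3% for histones, 26.7% for proton pumps, 22.7% for small-subunit ribosomal proteins and 21.7% for ergosterol synthesis. This list and that of N-glycosylation thus did not stand apart by this rule.

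Central carbon metabolism gave fba1, encoding aldolase, as the only split gene of 19 in glycolysis and fermentation (5.26%, beside 1.64% of all genes). It lay between 0.47 and 1.08 in the 7 arrays, with a median of 0.81, and at 0.21, 0.21 and 0.12 in the 3, a difference of 0.62. The list's median was 0.09, and pdc101 of the pyruvate decarboxylase family differed by 0.55 without being split. Of 13 genes of the tricarboxylic acid cycle 0 were split. The list also holds idp1, encoding the NADP-dependent isocitrate dehydrogenase, which had one of the higher differences outside the split genes, 0.80. It lay at 0.56 to 1.14 in the 7 arrays and at 0.11, 0.25 and 0.12 in the 3. The second probe of idp1 overlapped, at -0.06 to 0.98 against -0.05 to 0.01. The genes of the cycle's own NAD-dependent enzyme, idh1 and idh2, differed by -0.07 and 0.07.

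Single members of other lists were split, where 1.64% of all genes were split higher. gln1, encoding glutamine synthetase, was 1 of 63 members of the amino acid synthesis list (1.59%). That list was drawn by symbol and took in trp663, trp1322 and arg82, which are not synthesis genes and were not split. gln1 lay at 0.78 to 1.14 in the 7 arrays and at 0.42, 0.19 and 0.22 in the 3, a difference of 0.68. sxa1, an aspartic protease gene of the mating pathway, was 1 of 32 (3.12%), with 0.44 to 0.80 against -0.02, -0.02 and 0.02, a difference of 0.62. The histone H2A gene hta1 was 1 of 11 histone genes (9.09%), with 0.17 to 0.71 against -0.08, -0.08 and -0.02, a difference of 0.48. The histone H4 genes hhf1 (0.44) and hhf3 (0.36) were not split. vma3 of the vacuolar proton pump (0.42) was the only split gene of 15 members (6.67%). rpb10, a subunit shared by the RNA polymerases (0.39), was the only split gene of 31 members (3.23%). mrpl32 was the only split gene of 60 of the mitochondrial ribosome (1.67%), whose median was 0.01. For the lists of gln1 and mrpl32 the share was near that of all genes.

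Cytosolic chaperone genes had the lowest median of the 34 lists, -0.15 over 29 members, with 7 members above the median of all genes. hsp104 was the only split one, on the lower side, which is 3.45% of the list beside 0.142% of all genes. The list's median stayed below that of all genes in the main setting and each scaling, by -0.17 in the main setting, -0.11 with equal median absolute deviations and -0.15 after quantile normalization. The members did not move as a block. fes1, a nucleotide exchange factor gene for Hsp70, differed by -0.34, with overlap. cct3, of the chaperonin that folds actin and tubulin, differed by 0.47. hsp16, a small heat shock protein gene, was negative in all 10 arrays and less so in the 7, with -0.96 to -0.31 against -0.93, -0.98 and -1.04, a difference of 0.36.

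Ribosome biogenesis had the next lowest median, -0.08 over 83 members, of which 23 were above the median of all genes. The members were drawn by symbol and include rrp1 and rrp2, which in fission yeast name helicases of recombination. fib1, encoding fibrillarin of the nucleolus, was the only split gene of this list (1.20%, beside 1.64% of all genes), on the higher side. It lay between 0.36 and 0.86 in the 7 arrays and at 0.22, 0.16 and 0.10 in the 3, a difference of 0.43. tma23, split higher at 0.92, is not among the 83 members. rrp6, a nuclease of the exosome, had the second lowest difference of all lists' members at -0.46, with -0.88 to -0.41 in the 7 arrays and -0.03, -0.39 and -0.14 in the 3. Its averages came within 0.1 of each other and its probes overlapped, so it was not split. The list's median was 0.10 below that of all genes in the main setting and 0.11 below it in both other scalings of spread.

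**Figure D5:**
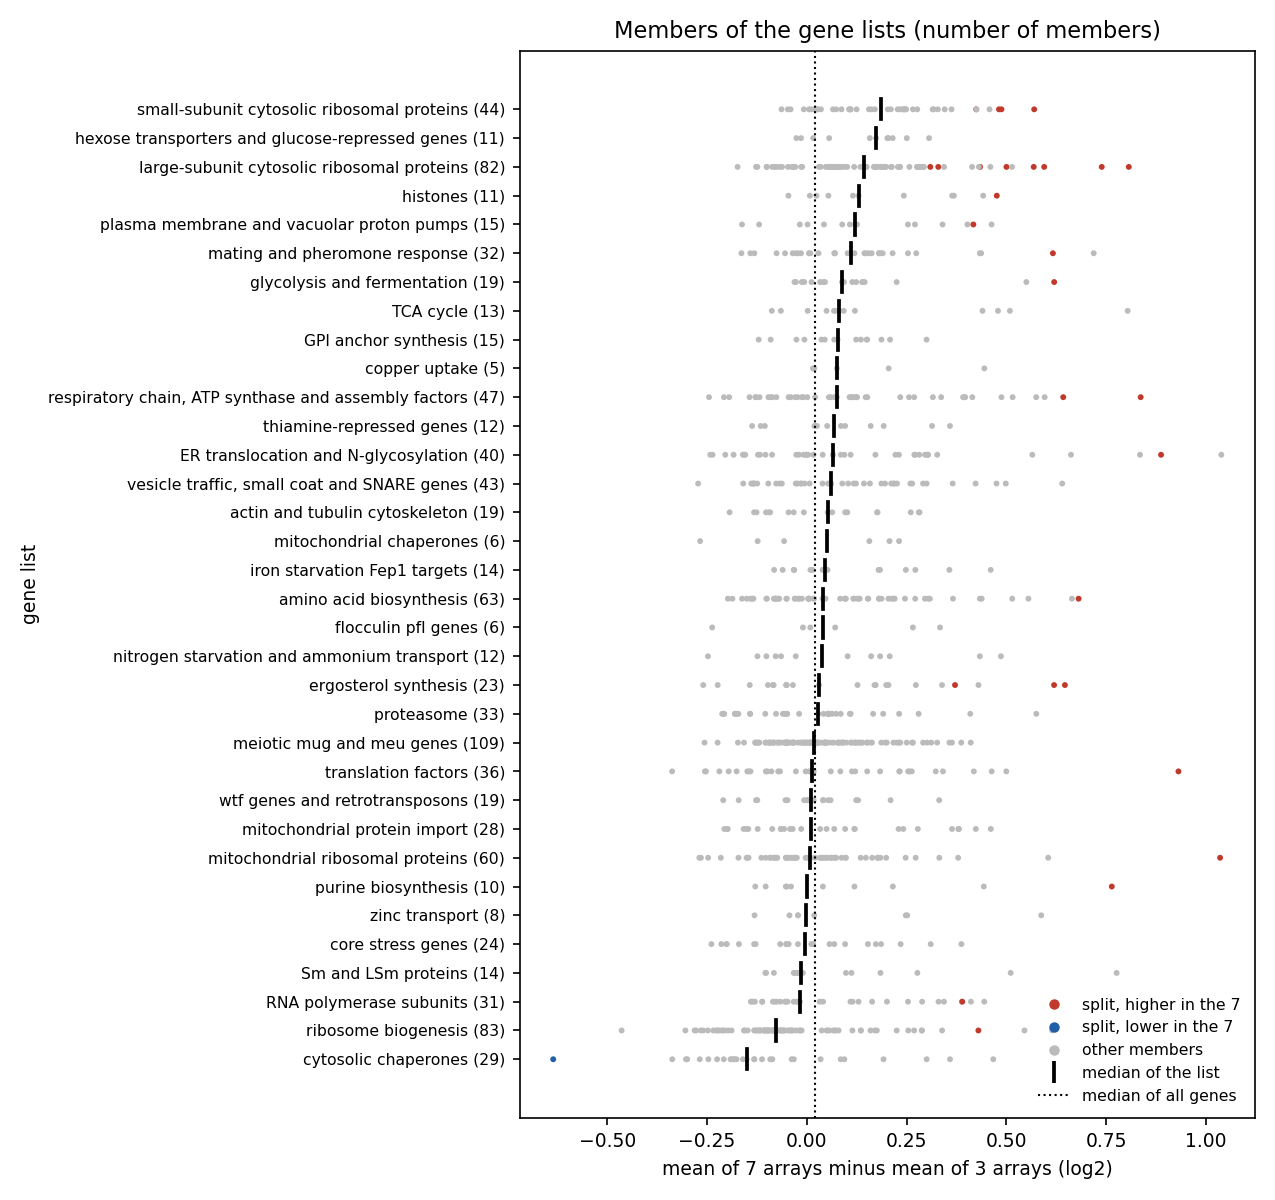
Difference between the sides (horizontal, log2) for each member of 34 gene lists (vertical, with the number of members), with a black bar for the list's median and a dotted line for the median of all genes at 0.02. List medians run from -0.15 for cytosolic chaperones to 0.19 for small-subunit ribosomal proteins in the main setting, and the medians of both cytosolic ribosomal protein lists turn negative after quantile normalization.

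Of the 34 lists, 15 held at least 1 gene split higher and 1 held a gene split lower. Among the lists with 0 split genes were 109 meiotic mug and meu genes (median 0.02), 24 core stress genes (median -0.01), 33 proteasome genes (median 0.03), 19 wtf genes (median 0.01) and 19 actin and tubulin genes (median 0.05). Over all genes 1.64% were split higher and 0.142% lower, so 0 in lists of these sizes says little about their genes. The list of Fep1 targets, 14 genes that include the iron regulator gene fep1 itself (0.36), also held 0 split genes. It had a median of 0.05 and 8 members above the median of all genes, but this list moved with the scaling. Its median was 0.31 with equal median absolute deviations, with 12 of 14 above, and 0.10 after quantile normalization, with 11 of 14 above. Of the 81 genes 28 (34.6%) belonged to any list, beside 20.6% of all genes. The remaining split genes included cdc48, encoding an AAA ATPase that extracts ubiquitylated proteins, and fkh1, encoding a prolyl isomerase of the FKBP type.

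Genes split higher were more frequent among short genes, while the difference over all genes followed length weakly. Across the 4791 genes found in the RefSeq table, Spearman's rho between difference and gene length was -0.08, a description across genes. Of the 81 genes, the 77 with a length had a median of 1307 bases, against 1811 over all genes. In 10 bins of 475 to 483 genes by length, from the shortest to the longest, the genes split higher numbered 15, 16, 8, 10, 6, 9, 4, 2, 2 and 5. The median difference was 0.04 in the shortest bin, up to 861 bases, and -0.01 in the longest, from 3570 bases. The part of length in the split was not tested. Genes split higher were 38 of 2184 on chromosome I (1.74%), 27 of 1752 on chromosome II (1.54%) and 12 of 855 on chromosome III (1.40%). The differences of neighbouring genes correlated at 0.02 over 4788 pairs.

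The labels' strain was read through its mating-type and leucine genes. An h- strain expresses M-specific genes such as mfm1, mfm2 and mfm3, whose differences were 0.18, 0.00 and 0.19, and lacks expression of the P-specific genes map2 and map3, whose differences were 0.18 and -0.02. The sides overlapped in all 5. leu1 differed by 0.31 with no overlap in the mean of its probes, but its probes gave 0.07 and 0.54, and it was not split. Ratios of like cultures do not show whether a gene was expressed, so they check neither the mating type nor the leu1-32 allele.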

How the data were processed

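Members and gene lists were chosen with earlier results of these data known, and some symbols that did not belong to a list were removed from it after values were seen. The lists follow patterns of gene symbols, and some members of other function remained in them. Values are deposited log2 ratios, 1 column for each of 28 arrays. Per the labels, the authors scanned slides on a GenePix 4000A, read them with GenePix Pro 4.0, corrected background, removed flagged features and features under 2 times background, and gave medians of log2 ratios. The table has 0 missing values, so which features were dim cannot be told. Normalization is not given in the sources used here.

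Arrays were median-centred and 2 probes averaged per gene, with Python 3.11.15, numpy 2.4.6, pandas 2.3.3 and scipy 1.17.1. The call rule was tested on simulated data. Genes are named from the platform annotation (4816 identifiers with a single gene, 22 with several, 91 with none), and 4791 matched the RefSeq table (ASM294v3), used for names, lengths and neighbours. Named genes are the 15 highest and up to 15 lowest split genes with a single gene, ost4, mrpl32, the strain genes, and up to 4 members of each list with the greatest difference and probes of like direction. Genes at the threshold, rpl35A01, rps2202, rpl1603, rpl2501, rps401, rps403, cdc48 and fkh1 were named after their values were seen. Alternatives were other centrings, scalings, thresholds, single probes, a length adjustment and left-out arrays. No test was made.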

Additional observations from a re-analysis of the deposited data

Results flagged for a closer look

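Among the 7 arrays, an array was picked out where its gap to the nearest other array, divided by the range of the 7, exceeded Dixon's 95% critical value for 7 values. Chance picks out about 1 in 20 groups of values. cox8 had array 5 at 1.23, above the other 6 arrays of its side. fet5 had array 6 at -0.0085, above the other 6. The calls of both genes as split held without these arrays.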

How the results depend on the processing

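The count of split genes depended on the processing. Against 81 higher and 7 lower in the main setting, no centring and centring on the array mean each gave 52 and 34. Equal median absolute deviations gave 77 and 13, of which 49 and 3 were shared with the main setting. Quantile normalization gave 47 and 73, with 33 and 4 shared. Differences of medians gave 77 and 11. No size threshold gave 90 and 49, a threshold of 0.5 gave 44 and 1, and no overlap required only in the mean of the probes gave 319 and 18. Leaving out an array gave 87 to 144 higher and 6 to 25 lower. Without array 5 there were 138 and 13, without array 6 93 and 15, without array 7 144 and 17, and without array 8 107 and 25; a smaller set of arrays overlaps less easily. Arrays 1 to 6 against 7 and 8 alone gave 111 and 8. Among 154 named differences, 0 changed by more than the spread among arrays when an array was left out, 49 did after quantile normalization, 14 after scaling to equal median absolute deviations, and 46 with the first probe alone and 46 with the second. Of 34 list medians 3 did after quantile normalization, and 1 each with equal median absolute deviations, the first probe alone and the second. The cause of the changes with scaling was not tested. No paired analysis was possible because the arrays form a single group and a hybridisation number only names an array. Background correction, a filter on dim probes and slides as a block were not run, since no intensities or slide labels were used. The number of arrays, 7 and 3, limits the precision.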
